A study of Homo sapiens with 2 samples.

Results

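The Mediator complex was followed through an RNA immunoprecipitation (IP) from Huh-7, a long-established line of human hepatocellular carcinoma cells. Its genes were taken by symbol, as MED followed by a number with or without an L, plus CCNC, CDK8 and CDK19, and gave 33 of the 25556 genes listed. In this assay an antibody pulls a protein out of a cell lysate, and the RNA bound to it is sequenced alongside RNA of the whole lysate, the input. There were 2 libraries, 1 IP (90% of the lysate) and 1 input (10%), both labelled wild type, the input with the treatment label none and the IP with the label SPSF7 Q16629. The design text names an antibody to the splicing factor SRSF7, whereas the sample protocol names one to YTHDF2, a reader of m6A, applied to poly(A) RNA. The libraries are therefore called only the IP and the input. Either way, the values concern the mRNAs of Mediator subunits, not the proteins.

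Mediator is a large coactivator that carries signals from transcription factors at enhancers to RNA polymerase II at promoters. Its core is built of a head and a middle module, which contact the polymerase, and a tail module, which many activators bind, held together by the scaffold subunit MED14. A separable kinase module, made of CDK8 or CDK19 with cyclin C (CCNC), MED12 and MED13 or their paralogues, docks on the core and limits its contact with the polymerase. In liver cells, the complex serves nuclear receptors, through MED1, and the sterol-controlled SREBP factors, through MED15.

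Reads assigned to genes numbered 5897293 in the IP and 2782045 in the input. Mediator genes took 0.109% of the IP reads (exact binomial 95% interval 0.106 to 0.112%) and 0.0875% of the input reads (0.0840 to 0.0910%). Single Mediator genes had 10 to 1360 reads in the IP (median 123) and 6 to 367 in the input (median 41). Levels are given in RPKM, reads scaled per kilobase of gene model and to the assigned reads of the library, and IP to input ratios are ratios of RPKM with a 95% interval from the reads. The intervals cover counting error only and take reads as independent. Since 24 of the 33 IP counts and 23 of the 33 input counts were even, both mates of a pair may have been counted, and it is said below where an interval computed from reads halved gives another answer. With 1 library per group, no difference has a replicate check. The IP and the input are labelled as portions of the lysate, so the ratios do not compare RNA per cell or numbers of cells. What sets the ratios was not tested. All 9 hepatocyte markers checked, among them ALB and AFP, were present in both libraries. Hepatocyte markers held 144104 IP and 72961 input reads, erythroid markers 4866 and 3506, and immune markers 816 and 739, of which LYZ held 714 and 637. The erythroid gene HBB reached 467 RPKM in the IP and 738 RPKM in the input. Levels were 655 and 944 RPKM for ALB and 1613 and 2814 RPKM for AFP. The part of erythroid and immune RNA in the Mediator values was not tested.

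The Mediator genes did not move as one. A ratio above 1 was found for 17 and below 1 for 16 of the 33, beside 7728 and 5946 of the 14057 genes tested (genes without input reads have no ratio). The median log2 ratio of the members was 0.04 against 0.14 for all genes tested. Log2 ratios here are log2((IP + 1)/(input + 1)) on RPKM, for the 14057 genes whose mean level reached 1 RPKM. Of the 33 members 31 passed that filter, and MED12L and MED17 did not. MED15, MED16, MED19 and MED22 reached a 2-fold higher level in the IP on this scale, 4 of 31 against a background of 11.3% of all genes tested. CCNC, MED4 and MED7 were at least 2-fold lower, 3 of 31 against 8.25%. The remaining 24 lay between, with MED26 closest to the higher bound at 0.98. Without the pseudocount, the interval of the ratio lay wholly above 1 for 10 of the 31 members tested (background 31.4%) and wholly below 1 for 5 (18.6%). MED12L and MED17, which did not pass the filter, are not in these counts. From reads halved these counts were 9 (23.8%) and 4 (12.8%), with MED13 and MED29 no longer among them. These shares lay near the background or somewhat above it. Scaled to reads in protein-coding genes, 13 of the 33 ratios were above 1, and scaled to the same RPKM sum 30 were, so the split around 1 belongs to the deposited scale. On these scales the median log2 ratio was -0.26 and 1.11 for the members tested, and -0.16 and 1.21 for all genes tested.

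**Figure D1:**
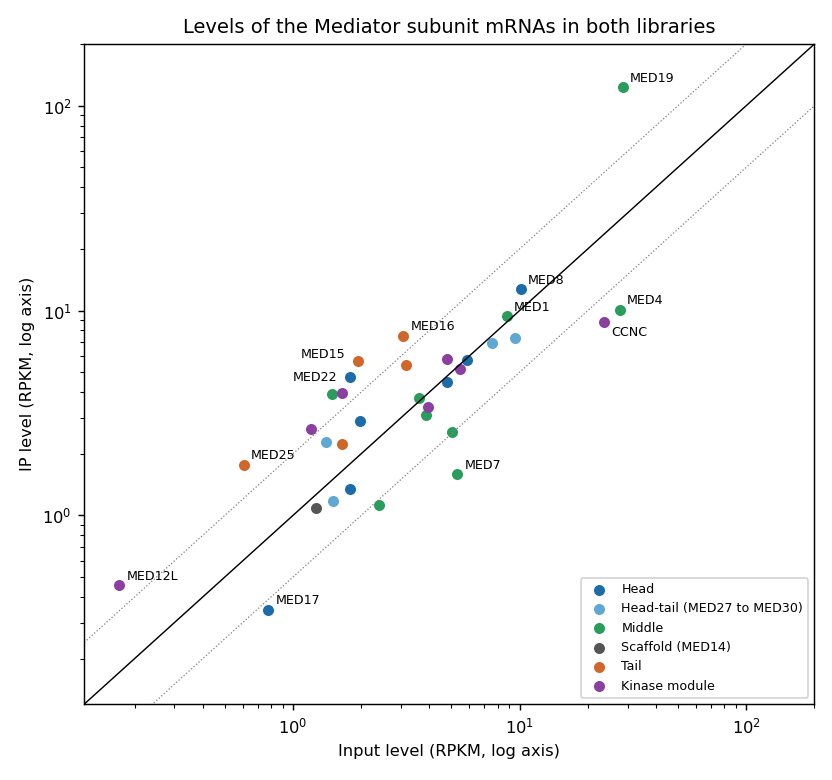
IP level against input level of the 33 Mediator genes, both in RPKM on log axes, coloured by module; the solid line marks equal levels and the dotted lines 2-fold differences. MED19 stands apart at 123 RPKM in the IP, and MED4, CCNC, MED7, MED17 and MED31 lie below the lower dotted line.

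MED19, a small subunit of the middle module, had by far the highest IP level and the highest ratio of the complex. It counted 1360 reads in the IP and 149 in the input, levels of 123 and 28.5 RPKM. The next highest IP level in the complex was 12.7 RPKM, that of MED8, whereas in the input MED4 came close to MED19, at 27.6 RPKM. The ratio of MED19 was 4.31 (interval 3.63 to 5.13), its log2 ratio of 2.07 was above those of 98.3% of genes tested, and the ratio was 3.29 with scaling to protein-coding reads. This 1 gene held 21.2% of the Mediator reads of the IP and 6.12% of those of the input. Without it the share of the other 32 genes was 0.0859% of IP and 0.0821% of input reads, a ratio of 1.05 with an interval from 0.995 to 1.10 that includes 1, against 1.24 (1.19 to 1.30) with it. MED19 spans chr11:57703714-57712323 on the minus strand in the deposited table, with a gene model of 1877 bases in 2 merged exons, and shares no exon bases with another listed gene on either strand.

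The remaining middle subunits went both ways. MED26, which recruits elongation factors to the polymerase, counted 123 reads in the IP and 22 in the input (3.91 and 1.48 RPKM), which gave a ratio of 2.64 (1.67 to 4.36). It shares 2351 exon bases with clone-named genes on its strand, so part of its reads may belong to them. MED1, the subunit that nuclear receptors bind, was about equal in both libraries, at 9.36 RPKM in the IP and 8.77 RPKM in the input (ratio 1.07, 0.905 to 1.26), and below 1 after scaling to protein-coding reads, at 0.814. MED9 was likewise near 1, at 1.04 (0.759 to 1.43), or 0.792 after that scaling, and MED10 at 0.802 (0.449 to 1.47).

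The low end of the middle module held MED4, MED7, MED21 and MED31. MED4 counted 154 reads in the IP and 199 in the input (10.1 and 27.6 RPKM) and was 2.74-fold lower in the IP (2.21 to 3.40). MED7 and MED21, which pair in the hinge of the module, had 26 and 41 reads and 55 and 51 reads. They were 3.34-fold lower (2.00 to 5.69) and 1.97-fold lower (1.32 to 2.93). MED31 had 14 reads in each library, 2.12-fold lower, with an interval from 0.937 to 4.80 that includes 1. MED31 shares 58.4% of its exon bases with TXNDC17 on the other strand, and MED4 11.9% with MED4-AS1 (6 IP and 11 input reads). The kit was stranded, but whether the counting used the strand is not stated in the labels or files used here.

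On the deposited scale, the tail was the one module whose genes all had ratios above 1, a side that 7728 of the 14057 genes tested share. The tail genes kept it under the 3 other scalings tried. Each scaling multiplies all ratios by 1 common factor (0.763, 0.908 or 2.39), so this follows from the lowest tail ratio, 1.36, and is no separate check. The median log2 ratio of the 5 tail genes was 0.78, against 0.14 for all genes tested. Among all genes of like length the median was 0.15 (3713 to 6413 bases, which holds MED16) and 0.30 (6414 bases and more). On this scale, with the pseudocount, MED15 and MED16 were at least 2-fold higher, 2 of 5 against 11.3% of all genes tested. MED25 was at 0.78 on it and is not counted, although its ratio without the pseudocount is above 2. MED15, which binds SREBP and SMAD factors, counted 346 reads in the IP and 56 in the input (5.66 and 1.94 RPKM), a ratio of 2.91 (2.19 to 3.94). MED16 had 188 and 36 reads, 7.55 and 3.06 RPKM, a ratio of 2.46 (1.72 to 3.62). MED25, a target of viral and nuclear receptor activators, had the fewest reads of the module, 80 and 13, and a ratio of 2.90 (1.60 to 5.69). Its exons share 18.7% of their bases with PTOV1-AS1 on the other strand, which had 74 and 11 reads. MED24 was at 1.72 (1.29 to 2.33) with 223 and 61 reads. MED23, which links the complex to the factor ELK1, was lowest at 1.36, with an interval from 0.912 to 2.07 that includes 1, and at 1.04 after scaling to protein-coding reads. Gene models of the tail ran from 4222 to 10374 bases, so the module also lies among the longer genes.

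In the kinase module MED12 and MED13L had ratios above 1 and the cyclin CCNC a ratio below 1, while MED13, CDK8 and CDK19 were closer to 1. MED12, which activates the kinase through cyclin C, counted 174 reads in the IP and 34 in the input (3.97 and 1.65 RPKM), a ratio of 2.41 (1.66 to 3.60). Its paralogue MED12L had 34 and 6 reads, 0.457 and 0.171 RPKM, and a ratio of 2.67 (1.11 to 7.79), with an interval that overlaps that of MED12 and that from reads halved (0.773 to 14.2) includes 1. MED12L shares 28.8% of its exon bases with IGSF10 on the other strand, which had 10 and 0 reads. CCNC, in contrast, had 291 and 367 reads, 8.80 RPKM in the IP and 23.5 RPKM in the input, and was 2.67-fold lower (2.29 to 3.13). Only 5.12% of the genes tested had a lower log2 ratio. CCNC shares 13.1% of its exon bases with TSTD3 on the other strand, which had 133 and 184 reads and a ratio of 0.341.

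Of the other paralogue pairs, MED13L and MED13 differed beyond counting error and CDK8 and CDK19 did not. Both MED13 proteins tether the kinase module to the core. MED13L counted 510 reads in the IP and 110 in the input (2.63 and 1.20 RPKM), a ratio of 2.19 (1.78 to 2.71). MED13 had 432 and 169 reads, 5.78 and 4.79 RPKM, a ratio of 1.21 (1.01 to 1.45), which fell to 0.920 with scaling to protein-coding reads. The intervals of the pair did not overlap, nor did those from reads halved (1.63 to 2.98 and 0.934 to 1.57). The kinases CDK8 and CDK19 were at 0.943 (0.674 to 1.33) and 0.859 (0.654 to 1.14), with 5.18 and 3.39 RPKM in the IP and 5.49 and 3.95 RPKM in the input. At this depth the kinase pair could not be told apart from each other or from a ratio of 1.

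Head subunits lay mostly around 1, with MED22 above and MED17 below. MED22 counted 202 reads in the IP and 36 in the input (4.73 and 1.79 RPKM), a ratio of 2.65 (1.85 to 3.89). Its partner in the head, MED11, had 50 and 24 reads and a ratio of 0.983 (0.593 to 1.67), an interval that does not reach that of MED22 but overlaps it from reads halved (0.476 to 2.15 and 1.59 to 4.65). MED11 shares 31.2% of its exon bases with the clone-named gene AC091153.4 on the other strand, which had 6 and 4 reads. MED8, MED18 and MED20 form the movable part of the head. MED8 was at 1.26 (0.964 to 1.66) on 203 and 76 reads and turned to 0.961 with scaling to protein-coding reads. MED20 was at 1.47 (0.850 to 2.65) and MED18, on 16 and 10 reads, at 0.755 (0.322 to 1.86). MED6 was at 0.935 (0.672 to 1.31). MED17, the architectural centre of the head, had 34 and 36 reads over a gene model of 16610 bases and was 2.24-fold lower (1.37 to 3.70). It shares 2156 exon bases with a clone-named gene.

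MED14 and the 4 subunits at the junction of head and tail showed no ratio far from 1. MED14, the scaffold, counted 62 reads in the IP and 34 in the input (1.09 and 1.26 RPKM), a ratio of 0.860 (0.557 to 1.35). MED28, with 451 and 231 reads, was at 0.921 (0.784 to 1.08), although its gene model of 10972 bases is among the longest, and 32.1% of its exon bases are shared with FAM184B on the other strand (54 and 19 reads). MED29 was at 0.768 (0.596 to 0.992), and the upper bound was 1.11 from reads halved. MED27 was at 1.64 (0.907 to 3.13) and MED30, with 10 and 6 reads, at 0.786 (0.259 to 2.63).

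**Figure D2:**
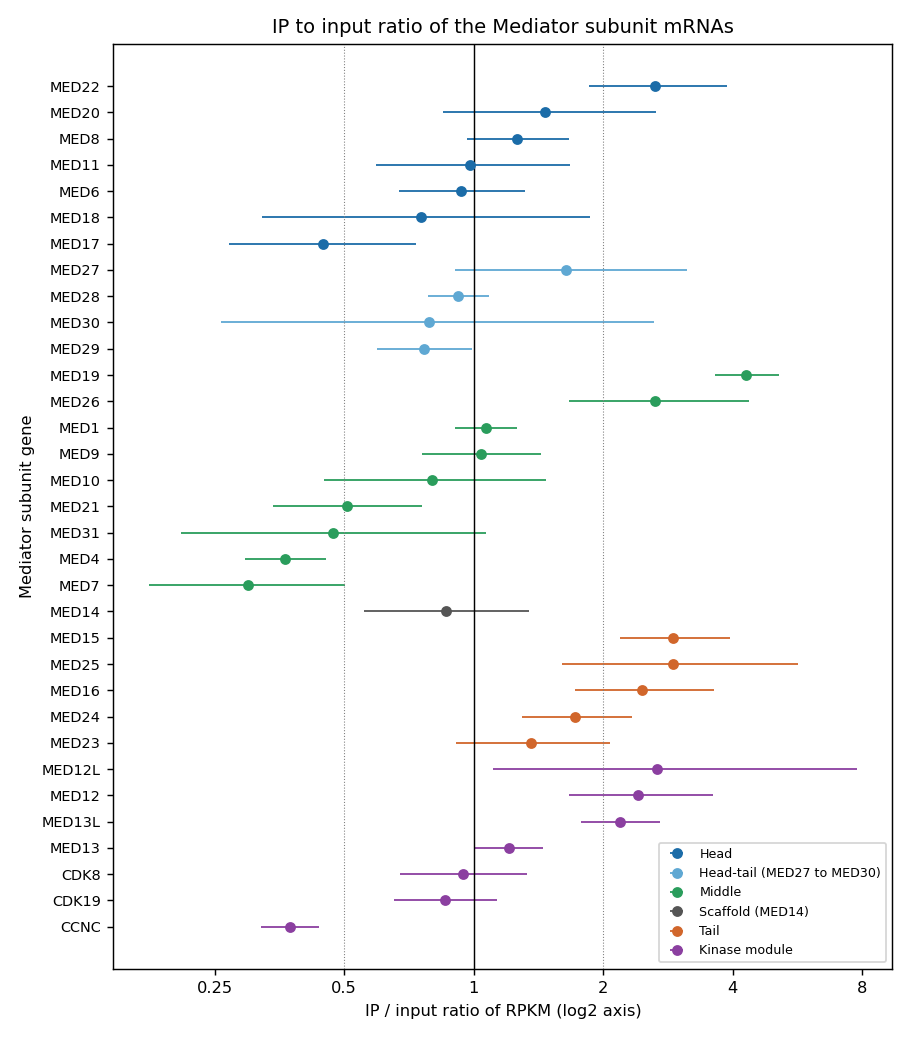
IP to input ratio of RPKM (log2 axis) for the 33 Mediator genes, grouped by module, with exact 95% counting intervals from 1 IP and 1 input library; the solid line marks 1 and the dotted lines 2-fold. All 5 tail genes lie above 1, and the middle module runs from MED7 at 0.299 to MED19 at 4.31.

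Longer gene models tended to go with higher ratios among Mediator genes, as among all genes, with MED19 a clear departure. Gene model length is the number of bases in the merged exons of the deposited table. Over the 31 members tested, Spearman's rho between length and log2 ratio was 0.36 and Pearson's r with log2 length 0.27, and without MED19 rho was 0.48 and r 0.44. The corresponding values over all 14057 genes were 0.16 and 0.15. These are correlations across genes of the same pair of libraries, the genes are not independent replicates, and RPKM itself is divided by the length. For the 11 members whose mean level reached 5 RPKM, rho was -0.082. Over all 33 members it was 0.29, with MED17 (16610 bases, ratio 0.446) and MED12L (12619 bases, ratio 2.67) included.

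With all genes tested split by length into 4 classes of like size, the short Mediator genes lay below genes of like length and the long ones spread around them. The shortest class held 0 members. In class 2 (1440 to 3712 bases) the 12 members had a median log2 ratio of -0.22 against 0.08 for all genes, and 3 of the 12, MED8, MED19 and MED20, lay above it. In class 3 (3713 to 6413 bases) 7 members had a median of 0.04 against 0.15, with MED16 and CCNC at the ends. In class 4, the longest (6414 bases and more) 12 members had 0.46 against 0.30, and 6 of the 12 lay above the median of that class. MED15, MED22, MED12, MED25, MED13L and MED24 were above, and MED23, MED13, MED1, MED28, MED14 and CDK19 below. Of these 12 members, 0 were at least 2-fold lower (background 0.882% in that class) and 2 at least 2-fold higher (10.4%). MED17 and MED12L, which did not reach the level filter, are also of that length and are not in these counts, and their ratios without the pseudocount were 0.446 and 2.67.

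**Figure D3:**
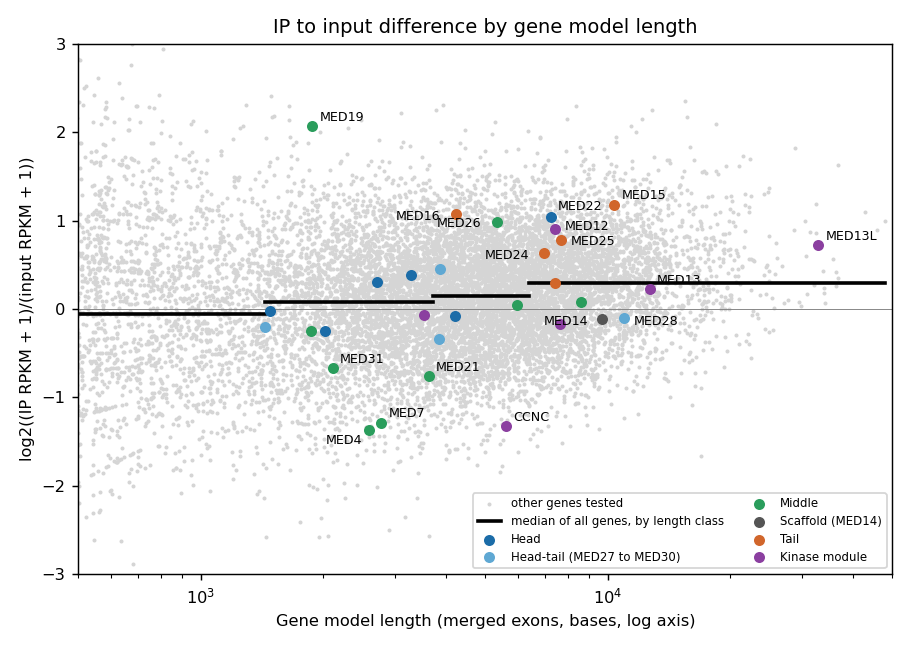
Log2 ratio of IP to input (RPKM + 1) against gene model length in bases (log axis) for the 31 Mediator genes tested (coloured by module) and the other genes tested (grey; 1731 of 14026 lie outside the axes); black lines are medians of all genes by length class. MED19 is short and high, MED4 and MED7 are short and low, and MED13L is the longest.

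The authors' peak list, regions called as enriched in the IP over the input, placed 21 peaks in 9 of the 33 Mediator genes. Peaks stood in MED15 (5), MED19 (4), MED13L and MED22 (3 each), MED28 (2) and CDK19, MED1, MED13 and MED16 (1 each). Of all genes tested 21.5% carried a peak, and in the longest length class 43.2% did, against 7 of the 12 Mediator genes tested of that length. Genes with a peak had more reads, a median of 601 over both libraries against 101 for the 24 members without one. The gene with the most reads and 0 peaks was CCNC, at 658. Of the 4 members at least 2-fold higher all carried a peak, and of the 3 at least 2-fold lower 0 did. Peaks and gene ratios come from the same 2 libraries and are not independent, so this overlap is largely built in and lends no support to either. The share with a peak among all genes past 2-fold is not given here.

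The strongest Mediator peaks lay in MED19. In the authors' deposited table, its 3 peaks in the last merged exon had folds of 3.91, 4.65 and 5.01, in order from the 5′ end, with deposited p-values of 1.96e-20, 1.62e-21 and 1.09e-08. They covered 1143 of the 1516 bases of that exon (75.4%), at chr11:57704588-57705103, chr11:57704213-57704488 and chr11:57703788-57704138. A further peak of 51 bases lay in the first exon, with a fold of 3.43. Outside MED19, the smallest p-value of a Mediator peak in the authors' deposited table was 0.000642, in MED15.

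MED15 had the highest peak coverage after MED19, with peaks over 40.6% of its gene model against 63.6% for MED19. The peak with the most exonic bases (1830), at chr22:20583386-20585215, lay wholly inside merged exon 19 of 20, with a fold of 3.97 in the authors' deposited table. A second spanned exons 15 to 17 (fold 3.38), and another, at chr22:20500816-20508071 (fold 3.64), touched exons 2 to 4 near the 5′ end. If the coordinates are GRCh38, which the files do not name but which the RefSeq spans of all 33 symbols overlap, this last peak spans both start sites that RefSeq lists for MED15 in its promoter table. The 30 bases around each are shown because they are the Mediator start sites listed there that lie within the genomic span of a peak. Only 251 of the 7256 bases of that span are exonic, so lying within it does not place a start site in enriched RNA. Lower case marks the 15 bases before the start and capitals the 15 transcribed bases from it (RefSeq, GRCh38.p14, plus strand).
MED15 first start site: tccgggtttgggcctGGCTCTGTGACTGAG
MED15 second start site: tttcccccgctttttGAACCACACTGAATA

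Peaks of the other genes were narrow or had weak statistics. MED22 had peaks in its first exon (151 bases, fold 2.93), over exons 2 to 5 (fold 3.12) and in its last exon (fold 2.83). In MED13L they lay at 9.69%, 23.0% and 63.7% of the gene model, with folds of 2.81, 3.90 and 4.29, and covered 6.44% of it. CDK19 held the peak with the highest fold of all Mediator peaks, 6.24, over 101 bases near the 5′ end, with a deposited p-value of 0.0378. MED13 carried a peak over its first 2 exons, and MED16 one over exons 4 and 5. The peaks of MED1 and MED28 lay in their last exons and covered 0.592% and 1.39% of the gene models. In total, 3 of the 21 peaks touched a first exon, 8 a last exon and 10 neither. The median fold of the 21 was 3.43 against 2.71 for all 7643 peaks, and the deposited false discovery rate exceeded 0.05 for 8 of 21 (38.1%), near the 39.7% of all peaks.

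**Figure D4:**
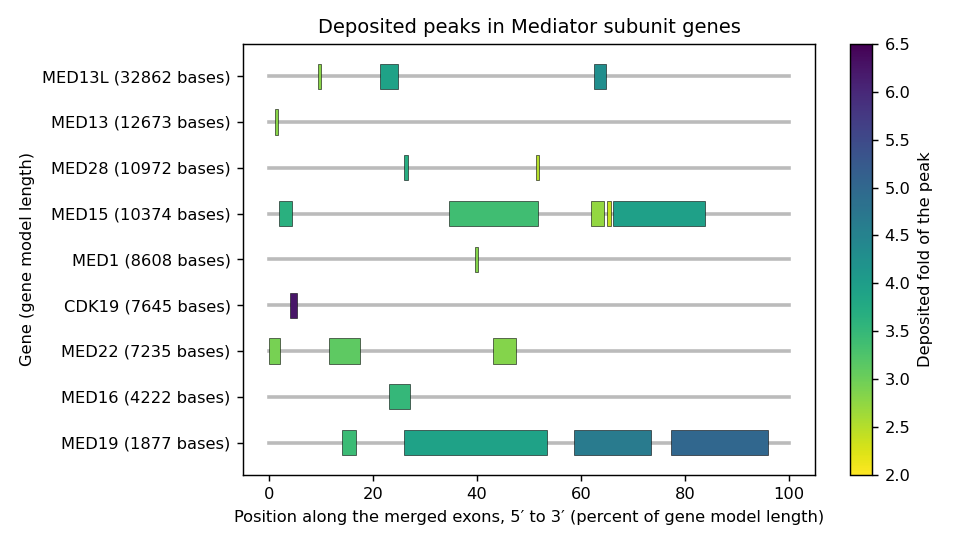
Deposited peaks along the merged exons of the 9 Mediator genes that carry one, from the 5′ end to the 3′ end in percent of gene model length, with colour for the deposited fold; bars run from the first to the last exonic base of a peak. Peaks of MED19 and MED15 cover 63.6% and 40.6% of their gene models, and those of MED1, MED13, CDK19 and MED28 are narrow.

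The general transcription factors, which form the preinitiation complex with RNA polymerase II, had a median log2 ratio of -0.16. Of 30 tested, 5 were at least 2-fold higher (background 11.3%) and 3 at least 2-fold lower (8.25%), counts near the background. Among those with at least 100 reads, the highest ratios were those of TAF4, a TFIID subunit, at 3.26 (2.65 to 4.05), and of GTF2F1, the large TFIIF subunit, at 2.82 (2.65 to 3.00). The lowest among them were CDK7, the TFIIH kinase, 3.85-fold lower (2.62 to 5.72), and TAF9, 3.01-fold lower (2.38 to 3.81). TAF9 shares exon bases with another listed gene on its strand, so part of its reads may belong elsewhere. CCNH, the cyclin partner of CDK7, was at 0.882 (0.628 to 1.25).

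Elongation and cohesin genes had median log2 ratios of 0.53 and 0.42, against 0.14 for all genes tested, with counts past 2-fold near the background. Of 12 elongation genes, SUPT5H and AFF1 were at least 2-fold higher (2, background 11.3%) and 0 lower (8.25%). SUPT5H, of the pausing factor DSIF, counted 6912 IP reads against 1310 for the input, a ratio of 2.49 (2.35 to 2.64). MLLT1, of the super elongation complex, was next by the ratio without pseudocount, at 2.18 (1.62 to 2.98). ELL2 at 0.746 (0.635 to 0.878) and CCNT1, a cyclin of P-TEFb, with a log2 ratio of -0.064, were lowest among those with at least 100 reads. Of 7 cohesin and loader genes, 1 was at least 2-fold higher and 0 lower. SMC1A was highest at 2.55 (2.45 to 2.66). By the ratio without pseudocount, NIPBL, the loader that Mediator contacts, came second at 1.49 (1.34 to 1.66). By log2 ratio SMC3 came second, at 0.546 against 0.542 for NIPBL. STAG2 at 0.966 and RAD21 at 0.984 were lowest. RAD21 also shares exon bases with another listed gene on its strand. Median gene models of these lists were 3877 bases for the general factors, 7245 for elongation, 8199 for cohesin and 5328 for Mediator.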

How the data were processed

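RNA of 1 IP and 1 input library of Huh-7 cells was analysed, grouped by title. Per the submitters' processing notes, Trimmomatic and STAR 2.5.3a were used. No source used here names the counter, annotation, peak caller or genome build. The authors deposited RPKM values without naming the unit: the products of value and gene length add up to 1 common total. In each library 100% of values came out as whole reads (tolerance 0.01), which gave the reads behind the intervals; no count model was fitted. Per the file headers, the deposited peak table holds for each peak a fold (ratio), p-value, score and false discovery rate, called from 1 IP and 1 input.

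The log2 ratio was log2((IP + 1)/(input + 1)) for genes whose mean level reached 1 RPKM, which understates changes of low genes. Single ratios have exact (Clopper-Pearson based) 95% intervals. No p-value was computed, since there is 1 library per group. Each peak went to the same-strand gene whose exons it covered most (1 base or more). Modules followed textbook assignments, with MED27 to MED30 kept apart. Members with at least 100 reads, paralogue pairs and members with a peak could be described singly, and the others are given by ratio. From each partner list the 2 highest and 2 lowest genes with at least 100 reads were taken, ranked by the ratio without pseudocount. CCNH was added once values were known. NIPBL, which ranks second in its list by that ratio but not by log2 ratio, was also chosen with values known. 1 gene of the elongation list is not reported here. The members and lists were chosen with earlier results of these data known. Of the 33 members, 6 share exon bases with a gene on the same strand and 16 with one on the other strand. RefSeq promoter entries matched 25 members. Peak and exon sequences were not used here. The interval calculation was tested on simulated data. Scripts ran on Python 3.11.15 with scipy 1.17.1, pandas 2.3.3, numpy 2.4.6 and, for plots, matplotlib 3.10.9. The table has 0 columns of other samples.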

Additional observations from a re-analysis of the deposited data

How the results depend on the processing

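Neither library has a replicate, so no library could be left out and no test was run. No paired analysis was possible because each group has 1 library. The counts of 4 members at least 2-fold higher and 3 lower depend on the scale: the higher count was 8 with a pseudocount of 0.1, 7 with 0.5, 2 with a mean of at least 5 RPKM, 2 after centring on the median of all genes, 1 (MED19) on the scale of protein-coding reads and 20 when both RPKM sums were made equal, where the lower count was 0. That last scaling moved the median of all genes to 1.21, that of the members to 1.11, and those of members below and above the length split, the median length of all genes tested, to 0.70 and 1.36 (from -0.22 and 0.29). The lower count stayed between 2 and 4 in the other settings. Spearman's rho with length, 0.36, was 0.29 for all 33 members without the level filter and turned to -0.082 with a mean of at least 5 RPKM (fewer genes). It was 0.48 without MED19 and 0.16 with the genomic span in place of length. Both of these last settings were chosen after seeing the data, as were the number of merged exons in place of length (0.28) and reads halved. The length of the protein was not run, since no protein table was used here. Of 21 peaks, 13 had a false discovery rate of at most 0.05 (in 6 genes) and 13 a fold of at least 3 (in 7 genes); all 21 kept at least 50 exonic bases. The share of IP reads in members, 0.109%, was 0.0859% without MED19. Among the 33 ratios under 3 scalings, 60 values stayed within the counting interval and 39 moved out of it, and none of the 7 members past 2-fold changed sides of 1. Depth limits MED30, MED18, MED31 and MED12L most.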

Other observations

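Besides the subunit genes, the table listed 5 antisense genes and pseudogenes named after them. MED8-AS1 counted 60 reads in the IP and 25 in the input (13.9 and 12.3 RPKM), a ratio of 1.13 (0.699 to 1.88), and MED4-AS1 had 6 and 11 reads, a ratio of 0.257 (0.0781 to 0.759). MED14OS had 2 and 3 reads, MED28P3 2 and 2 and MED15P4 1 and 0. None of the 5 carried a peak. The deposited peaks of the MED genes are numbered from 5216 to 5244, and 9 numbers in that range are absent from the list; what they were is not stated in the labels or files used here.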
